A study of Homo sapiens with 3 samples.

Results

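These genes encode the membrane proteins and scaffolds of epithelial cell junctions, namely the claudins, the numbered cadherins, the desmocollins and desmogleins, occludin (OCLN), EPCAM and the scaffolds TJP1 and TJP3. They were taken by gene name from the deposited gene tables, on the main references, those whose names hold no “_” sign, which gave the 58 genes described here of the 43389 gene rows shared by all 3 tables. These were 24 claudins, 23 cadherins, 7 desmosomal cadherins, 2 scaffolds, OCLN and EPCAM. Another 3 rows of the same names on alternate references were left out, and all were listed at 0. RNA-seq was performed on polyA RNA from 3 libraries labelled as HepG2 with the genotype WT, replicates 1 to 3. HepG2 is an established human liver cancer cell line, the labels name no treatment, and there was no second condition. The labels do not say whether the replicates were separate cultures, so the SD measures only the spread between these libraries. The permutation of signs used below gives a p of 0.25 for any 3 values of the same sign, so its p-values do not measure that spread. Levels are given in TPM, which is scaled for gene length and has 1 common total in every library. For some genes TPM and coverage, the other measure in the tables, gave different orders, and levels of different genes are compared below with that limit. Read numbers are not in the tables, so the depth is unknown, and only a relative measure of it could be had. This was the maximum of coverage divided by FPKM, which reached 13.3, 12.8 and 11.5 in replicates 1, 2 and 3.

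The label was set against marker genes of cell types. All 11 hepatocyte markers were below 1 TPM in every library, and their summed level ranged from 0.0571 to 0.244 TPM. ALB, APOA1, APOB, SERPINA1, FGA, FGB, FGG and AHSG were listed at 0 in all 3 libraries. These markers did not bear out a liver origin of the cells, whose identity was not tested further. The libraries are therefore called here by their label and not as hepatocyte-like cells. Of 3 markers of simple epithelium, KRT8 and KRT18 were above 10 TPM and KRT19 was below 1 TPM in every library, and the 3 summed to between 4516 and 4771 TPM. Of 6 fibroblast and mesenchyme markers, 2 reached 1 TPM in all 3 libraries, and the sum of 668 to 755 TPM was mostly VIM, with 694 ± 48.1 TPM (SD, n = 3). KRT10 was the 1 keratinocyte marker of 4 above 1 TPM, in a summed level of 59.8 to 73.3 TPM, and KRT5 and KRT1 were listed at 0. One of 5 endothelial markers, VWF, and 1 of 3 nerve markers, SNAP25, reached 1 TPM in all 3 libraries, with summed levels of 1.29 to 1.58 TPM and 2.98 to 3.66 TPM. None of 4 blood and 3 muscle markers did, with sums of 0.631 to 0.823 TPM and 1.07 to 1.21 TPM, and PTPRC was listed at 0. The part of other cells in the levels below was not tested. In bulk RNA, fewer cells that express a gene and less RNA in each cell cannot be told apart.

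Epithelial cells are held together by 3 kinds of junction. In tight junctions, claudins form strands that seal the space between cells or let selected ions through, and scaffolds such as TJP1 (ZO-1) and TJP3 (ZO-3) anchor the strands to actin. In adherens junctions, classical cadherins of neighbouring cells bind each other and hold actin through catenins. In desmosomes, desmogleins and desmocollins bind across the gap and hold keratin filaments through plakoglobin, plakophilins and desmoplakin. Hepatocytes seal their bile canaliculi with tight junctions and are known to carry both E-cadherin (CDH1) and N-cadherin (CDH2).

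A few members of each family carried nearly all of its RNA. At least 1 TPM in all 3 libraries was reached by 13 of the 58 genes (22.4%), against 59.5% of the 18743 protein-coding gene rows on main chromosomes and 30.7% of all gene rows. At least 10 TPM was reached in every library by 7 of them (12.1%), against 40.4% of protein-coding rows. Another 44 genes were below 1 TPM in every library, and 15 of these were listed at 0 in all 3. The remaining gene, CDH1, lay on both sides of 1 TPM. The shares of all gene rows below 1 TPM in every library, or listed at 0, were not counted. The numbers of such members, here and below, can therefore not be set against those of other genes. The 4 claudins above the limit were 4 of 24, the 4 cadherins were 4 of 23 and the 3 desmosomal cadherins were 3 of 7, while both scaffolds passed. By mean level the order was DSG2, CLDN4, CDH2, CDH13, CLDN7, TJP1, CLDN12, CDH24, CLDN15, DSC3, DSC2, TJP3, CDH4 and CDH1. Of the 13 pairs of neighbours in this order, the ranges over the libraries overlapped in 2, CDH2 with CDH13 and CDH13 with CLDN7. The gap was narrow between DSG2, whose lowest value was 59.6 TPM, and CLDN4, whose highest was 58.8 TPM.

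**Figure D1:**
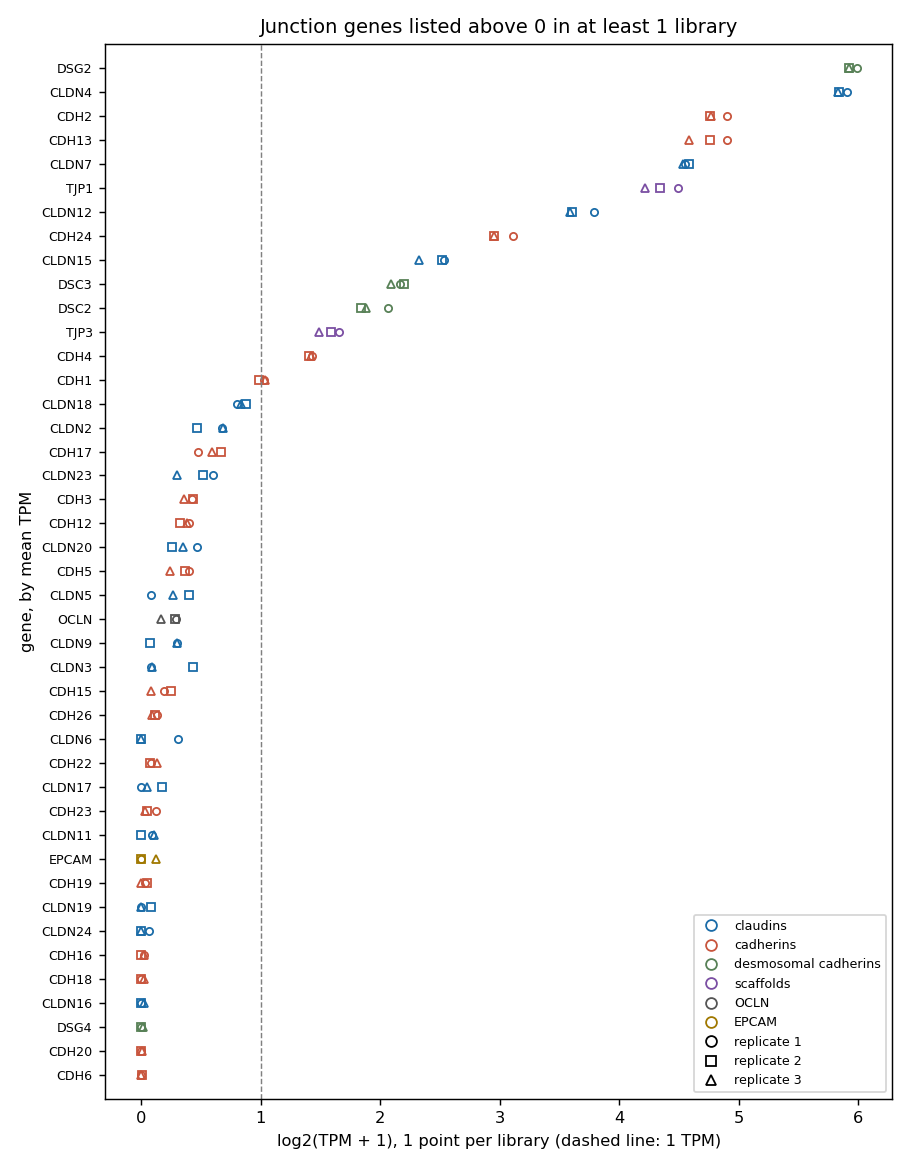
Level of each junction gene listed above 0 in at least 1 library, as log2(TPM + 1) with 1 point per library, ordered by mean TPM and coloured by family. The 13 genes from DSG2 to CDH4 lie right of the dashed line at 1 TPM in all 3 libraries, CDH1 lies on it, and the other 29 genes lie left of it.

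CLDN4 was the main claudin, with 58.8, 56.4 and 56.0 TPM in replicates 1, 2 and 3, or 57.1 ± 1.55 TPM (SD, n = 3). It tightens the barrier to sodium and binds the enterotoxin of Clostridium perfringens. It took 57.9% ± 0.479 (SD, n = 3) of the summed TPM of the claudins. CLDN7, found on the lateral membrane of many epithelia and a partner of EPCAM, had 22.4, 23.1 and 22.2 TPM. Its mean was 22.6 ± 0.437 TPM (SD, n = 3), which was 22.9% of the claudin sum. CLDN12 had 12.8, 11.2 and 11.1 TPM and a mean of 11.7 ± 0.989 TPM (SD, n = 3). CLDN15, which forms pores for sodium in the intestine, had 4.78, 4.71 and 4.001 TPM and a mean of 4.50 ± 0.430 TPM (SD, n = 3). These 4 claudins did not overlap each other in any library, and the summed level of all 24 was 98.6 ± 3.03 TPM (SD, n = 3).

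The other 20 claudins were below 1 TPM in every library. CLDN18, a claudin of stomach and lung, lay nearest to the limit with 0.747, 0.839 and 0.786 TPM. CLDN2, which forms pores for cations and water, had 0.595, 0.380 and 0.603 TPM. The claudin that tightens the blood-brain barrier, CLDN5, had at most 0.321 TPM. CLDN6, which is known from embryonic tissue, was listed at 0.236 TPM in replicate 1 and at 0 in the others. The highest values in any library were 0.515 TPM for CLDN23, 0.378 TPM for CLDN20, 0.347 TPM for CLDN3, 0.233 TPM for CLDN9, 0.127 TPM for CLDN17 and 0.0763 TPM for CLDN11. Those of CLDN19 and CLDN16, which act together in the uptake of magnesium in the kidney, were 0.0568 and 0.0165 TPM, and that of CLDN24 was 0.0488 TPM. In 6 of the 13 low claudins, CLDN6, CLDN11, CLDN16, CLDN17, CLDN19 and CLDN24, at least 1 library was at 0 while another was above it. The 7 claudins listed at 0 in all 3 libraries were CLDN1, CLDN8, CLDN10, CLDN14, CLDN22, CLDN25 and CLDN34. CLDN1 is a barrier claudin of hepatocytes and skin.

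Of the scaffolds of the tight junction, TJP1, the first known ZO protein, had 21.6, 19.2 and 17.6 TPM, with a mean of 19.5 ± 1.99 TPM (SD, n = 3). TJP3, which is largely restricted to epithelia, had 2.15, 2.00 and 1.81 TPM, with a mean of 1.99 ± 0.169 TPM (SD, n = 3). TJP1 and TJP3 did not overlap, and each was highest in replicate 1 and lowest in replicate 3. OCLN, a membrane protein of the tight junction that binds TJP1, had only 0.226, 0.214 and 0.118 TPM.

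**Figure D2:**
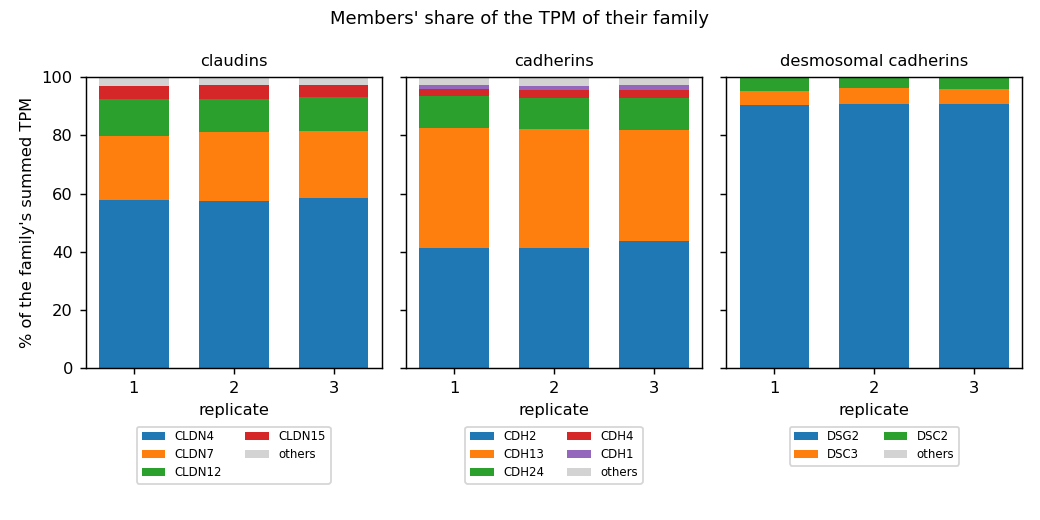
Share of each gene in the summed TPM of its family, in percent, with 1 stacked bar per replicate. CLDN4 made up 57.9% of the claudins and DSG2 90.6% of the desmosomal cadherins on average, while CDH2 and CDH13 held 42.0% and 40.2% of the TPM of the cadherins, but 45.7% and 8.50% of their coverage.

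Among the classical type I cadherins, N-cadherin was far above E-cadherin. CDH2, known from neural and mesenchymal cells, had 28.9, 26.1 and 26.3 TPM in replicates 1, 2 and 3, or 27.1 ± 1.58 TPM (SD, n = 3). CDH1, the cadherin of epithelial adherens junctions, had 1.04, 0.980 and 1.05 TPM, or 1.02 ± 0.0382 TPM (SD, n = 3). The mean of CDH2 was 26.5 times that of CDH1 by TPM and 6.96 times by coverage. CDH4 (R-cadherin), known from the retina and brain, had 1.69, 1.64 and 1.68 TPM, with a mean of 1.67 ± 0.0299 TPM (SD, n = 3). CDH3 (P-cadherin) had at most 0.349 TPM and CDH15, the cadherin of muscle, at most 0.185 TPM.

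Of the 13 type II cadherins, which have a different adhesive interface, 1 reached 1 TPM in all 3 libraries. This was CDH24, with 7.62, 6.75 and 6.73 TPM and a mean of 7.04 ± 0.510 TPM (SD, n = 3). CDH5, the VE-cadherin of endothelium, had 0.316, 0.291 and 0.181 TPM, and CDH12 had at most 0.320 TPM. CDH22, CDH19, CDH18, CDH20 and CDH6 had at most 0.0979, 0.0345, 0.0188, 0.00459 and 0.00361 TPM. The remaining 5, CDH7, CDH8, CDH9, CDH10 and CDH11, were listed at 0 in all 3 libraries. CDH11 is the cadherin of osteoblasts and fibroblasts.

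The cadherins of unusual structure were led by CDH13 (T-cadherin), which is held in the membrane by a lipid anchor and has no cytoplasmic tail. It had 28.9, 26.1 and 22.9 TPM in replicates 1, 2 and 3, or 26.0 ± 2.98 TPM (SD, n = 3). Its range over the libraries overlapped that of CDH2. CDH17, the liver-intestine cadherin, had 0.393, 0.592 and 0.504 TPM. CDH26, CDH23, which forms the tip links of hair cells in the ear, and CDH16, the cadherin of kidney, had at most 0.0932, 0.0897 and 0.0166 TPM. The summed level of the 23 cadherins was 64.6 ± 4.96 TPM (SD, n = 3). CDH13 made up 40.2% ± 1.81 of it by TPM and 8.50% ± 0.240 by coverage, and CDH24 10.9% ± 0.263 by TPM and 31.0% ± 0.593 by coverage (SD, n = 3), the coverage shares being an alternative chosen after the data had been seen. EPCAM, an epithelial adhesion molecule outside these families, was listed at 0 in replicates 1 and 2 and at 0.0901 TPM in replicate 3.

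All 7 desmosomal cadherins lie in 1 cluster of 560 kb on chromosome 18, from 30989365 to 31549008 in GRCh38, and their levels differed widely along it. DSG2, the desmoglein of simple epithelia and heart, had 62.5, 59.8 and 59.6 TPM in replicates 1, 2 and 3. Its mean of 60.6 ± 1.62 TPM (SD, n = 3) was 90.6% of the sum of the family, and its share by coverage was 79.3%. DSC3, best known from the lower layers of skin, had 3.49, 3.58 and 3.25 TPM, or 3.44 ± 0.170 TPM (SD, n = 3). DSC2, the most widespread desmocollin, had 3.20, 2.57 and 2.68 TPM, or 2.82 ± 0.333 TPM (SD, n = 3). The lowest value of DSC3 was just above the highest of DSC2. DSG1 and DSC1 of the upper skin layers and DSG3, the antigen of pemphigus vulgaris, were listed at 0 in all 3 libraries, and DSG4 of hair follicles had 0.00996 TPM in replicate 3 only. The deposited rows place DSC3, DSC2 and DSC1 on the minus strand and DSG1, DSG4, DSG3 and DSG2 on the plus strand, so that DSG2 lies next to DSG3, which is at 0.

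**Figure D3:**
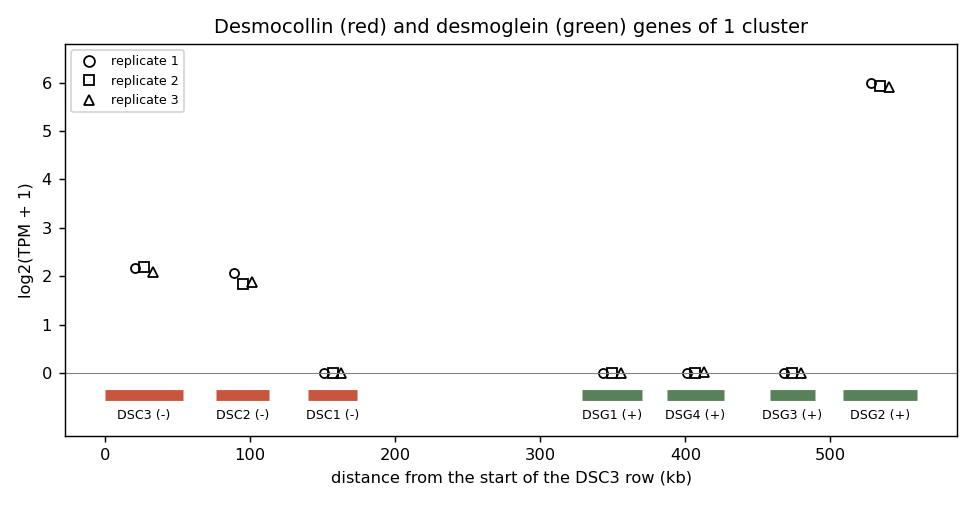
Level of the 7 desmosomal cadherins as log2(TPM + 1), with 1 point per library, over their place in the cluster as distance in kb from the start of the DSC3 row. The outermost genes, DSC3 with its neighbour DSC2 at one end and DSG2 at the other, carry the signal, and the 4 genes between them lie at or near 0.

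The bases before the start of DSG2 and DSG3 are shown because these neighbouring desmogleins on 1 strand had the highest level of the family and a level of 0. Each window holds the 250 bases upstream of the RefSeq start in GRCh38.p14, which is also the start of the deposited row, and no exon of GENCODE v44 covers it. Capitals mark CG dinucleotides, the sites of DNA methylation, which was not measured here. The window of DSG2 is chr18:31497927-31498176 and that of DSG3 is chr18:31447491-31447740, both on the plus strand.
DSG2: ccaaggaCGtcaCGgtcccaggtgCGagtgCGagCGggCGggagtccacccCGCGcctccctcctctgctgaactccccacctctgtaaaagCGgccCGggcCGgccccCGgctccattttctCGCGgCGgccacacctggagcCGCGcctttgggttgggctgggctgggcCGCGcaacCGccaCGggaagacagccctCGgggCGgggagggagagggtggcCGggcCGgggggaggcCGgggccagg
DSG3: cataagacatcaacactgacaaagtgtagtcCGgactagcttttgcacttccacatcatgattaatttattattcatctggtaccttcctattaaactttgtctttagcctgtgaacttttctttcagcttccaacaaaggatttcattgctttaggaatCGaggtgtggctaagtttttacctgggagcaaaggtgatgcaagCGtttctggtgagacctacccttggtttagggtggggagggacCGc
The upstream window of DSG2 held 26 CG dinucleotides at a GC content of 75.2%, and that of DSG3 held 4 at 42.8%.

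Promoter windows from RefSeq were read for 40 of the 58 genes, each from 250 bases before to 50 bases after a start site. CDH1, CDH3, CDH5, CDH6, CDH11, CDH13, CDH15, CDH16, CDH17, CDH22, CDH24, CLDN5, CLDN8, CLDN9, CLDN19, CLDN23, DSG4 and EPCAM had no entry. Where a gene had several windows, the one with the most CG was used. The 11 matched genes with at least 1 TPM in all 3 libraries had a median of 23 CG in 300 bases. The 16 matched genes at a lower level had a median of 13, and the 13 matched genes listed at 0 had a median of 9. Over all genes with a window, the medians were 29 for genes with at least 1 TPM in all 3 libraries and 4 for genes listed at 0. This background, also used for the E-box below, was not limited to protein-coding genes, while all 58 members are protein-coding. The medians and shares are therefore of unlike sets. In the desmosomal cluster, DSG2, DSC3 and DSC2 had 36, 25 and 22 CG, while DSG3, DSG1 and DSC1 had 6, 3 and 2. The other window of DSC2, nearer the start of its deposited row, had 15 CG. The neighbouring claudins ran the other way, with 5 CG in the window of CLDN4 and 24 in that of CLDN3. The window of CLDN4, from 73830746 to 73831045, lies partly inside its deposited row, which starts at 73830863. GENCODE starts this gene further upstream, at 73799542, and the bases before these other starts were not read in full. The E-box CACCTG, read as CACCTG or CAGGTG to cover both strands, was found in a window of 15 of the 40 matched genes (37.5%), against 24.1% of all 27305 genes with windows. It was in 6 of 11 matched genes with at least 1 TPM and in 3 of 13 listed at 0, where the shares over all genes were 23.5% and 23.4%. Counted by window, the share was 26.2% for the members and 20.6% for all genes. Of these 6, CLDN7 had 5 copies in 1 window and none in the other, which lies nearer the start of its deposited row. DSG2 had 2 copies, and CDH4, DSC2, TJP1 and TJP3 had 1 copy in 1 of their windows. CLDN3 had 1 copy, and the windows of CLDN4 and CDH2 had none. OCLN and CLDN14, both below 1 TPM in every library, also had a window with 2 copies. These counts describe letters in the windows and show no binding.

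In 5 pairs of members, the log2 ratio was taken library by library, on TPM + 1. The ratio was 5.66 ± 0.22 for CLDN4 to CLDN3, 4.11 ± 0.08 for TJP1 to OCLN, 4.02 ± 0.09 for DSG2 to DSC2 and 3.80 ± 0.07 for CDH2 to CDH1 (SD, n = 3). Each of these had the same direction in 3 of 3 libraries. CLDN1 was below CLDN2 by a difference of -0.61 ± 0.12 on the same scale (SD, n = 3), and no fold is given because CLDN1 was listed at 0. For every pair p was 0.25 by an exact permutation of signs, two-sided, and 0.25 after Benjamini-Hochberg adjustment over the 5 pairs, the lowest value possible with 3 libraries. The pseudocount of 1 makes these ratios understate the difference to genes below 1 TPM, such as CLDN3 and OCLN. CLDN3 and CLDN4 lie within 63.7 kb of each other on chromosome 7, at 73768997 to 73770270 on the minus strand and 73830863 to 73832693 on the plus strand.

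**Figure D4:**
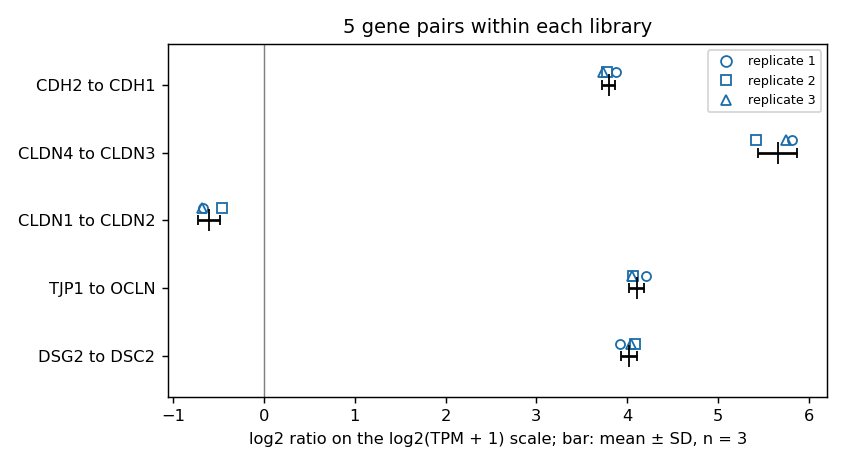
Log2 ratio of the first to the second gene of 5 pairs on the log2(TPM + 1) scale, with 1 point per library and the mean ± SD over 3 libraries as a bar. In 4 pairs the first gene is higher, with means from 3.80 to 5.66, CLDN1 to CLDN2 is at -0.61, and the 3 libraries of each pair lie on the same side of 0.

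The order of the levels differed between TPM and coverage, the mean read depth over a gene, which is also in the tables. CLDN4 had the highest coverage, with 341 ± 31.0, followed by DSG2 with 141 ± 12.7 (SD, n = 3). TJP1 with 103 ± 16.5 and CLDN7 with 103 ± 10.03 came next (SD, n = 3), and their ranges overlapped. CDH13, number 4 by TPM, was number 11 by coverage, with a coverage of 7.79 ± 0.718, while CDH2 had 41.9 ± 4.79 (SD, n = 3). CDH1 had 6.03 ± 0.371 and CDH4 had 0.266 ± 0.0183 (SD, n = 3), the reverse of their order by TPM. CDH4, number 13 by TPM, was number 28 by coverage. It lay below several members under 1 TPM in every library, such as CDH17 with a mean coverage of 2.81 and OCLN with 0.406. By coverage, CDH4 was therefore not set apart from the low members. The ratio of coverage to FPKM, relative to the highest ratio in the library, was 1.00 for CLDN4, 0.985 for CDH1 and 0.880 for TJP1 in replicate 1. It was 0.259 for CDH2, 0.0472 for CDH13 and 0.0266 for CDH4. The cause of these low ratios was not tested. CDH2 was above CDH1, and DSG2 above DSC2, by both measures.

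**Figure D5:**
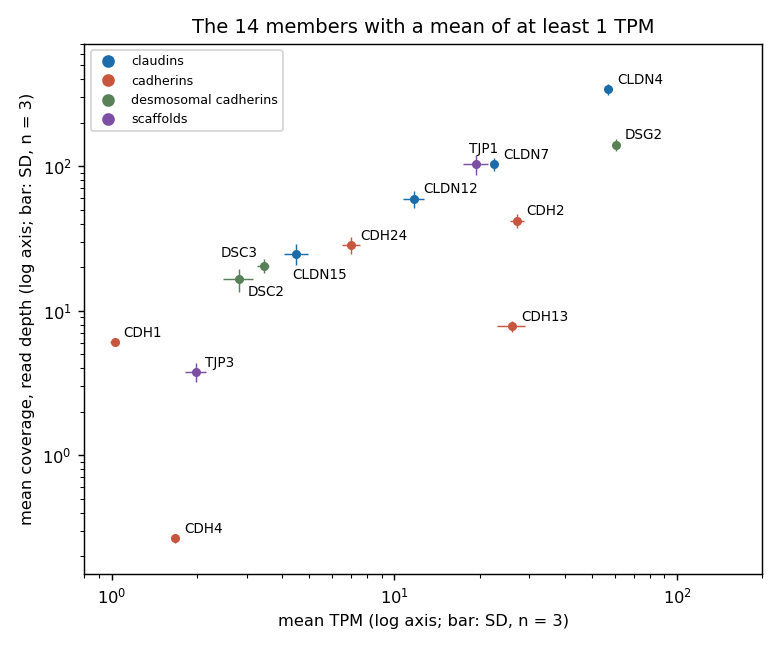
Mean coverage against mean TPM of the 14 members whose mean reached 1 TPM, both on log axes, with the SD over 3 libraries as bars. CDH13 and CDH4 lie far below the other genes of like TPM, and CLDN4 has the highest coverage.

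A list of partners of these proteins was read as well, with plaque, scaffold and polarity proteins and other membrane proteins of junctions. Of the 48 genes, 36 had at least 1 TPM in all 3 libraries, where the share of all protein-coding rows was 59.5%. At least 10 TPM was reached by 23, where that share was 40.4%, and 12 were below 1 TPM in every library. Of the 11 genes of the cadherin-catenin plaque, 8 passed 1 TPM. The highest were the actin crosslinker ACTN4 with 698 ± 19.2 TPM, alpha-catenin CTNNA1 with 267 ± 13.7 TPM, plakoglobin (JUP), shared by adherens junctions and desmosomes, with 219 ± 5.97 TPM, and vinculin (VCL) with 167 ± 11.5 TPM (SD, n = 3). The lowest were afadin (AFDN) with 5.89 ± 0.408 TPM (SD, n = 3) and the catenins CTNNA2, CTNNA3 and CTNND2, which had means of 0.0581, 0.0133 and 0.00265 TPM.

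In the desmosome plaque, 10 TPM was passed in every library by 8 of 9 genes, against 40.4% of protein-coding rows. PERP, PKP3, LMO7 and desmoplakin (DSP), which ties desmosomes to keratin, led with 76.4 ± 6.63, 71.3 ± 4.84, 63.4 ± 3.26 and 52.6 ± 3.23 TPM (SD, n = 3). The lowest were periplakin (PPL), envoplakin (EVPL) and plakophilin 2 (PKP2) with means of 23.6, 13.2 and 12.5 TPM, and PKP1, a plakophilin of skin, with 0.0914 TPM. Of 24 tight junction partners, 17 passed 1 TPM, against 59.5% of protein-coding rows. ESAM, PALS1 (listed as MPP5), PRKCI and PRKCZ were highest with 66.8 ± 2.12, 58.4 ± 3.11, 32.1 ± 1.45 and 23.5 ± 2.22 TPM (SD, n = 3). PALS1 and the kinases PRKCI and PRKCZ belong to the polarity complexes that set the apical side of the cell. ILDR2 had a mean of 0.0131 TPM, and JAM2, MAGI2 and ILDR1 were listed at 0 in all 3 libraries. Among the nectins, adhesion proteins that start adherens junctions, NECTIN2 had 43.1 ± 0.701 TPM, NECTIN3 8.93 ± 0.728 TPM, NECTIN1 7.29 ± 0.345 TPM and NECTIN4 0.619 ± 0.230 TPM (SD, n = 3).

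The libraries differed little in the members that were expressed, as they did in most genes at such levels. None (0) of the 14 members whose mean reached 1 TPM spanned more than 1 unit of log2(TPM + 1) between libraries, against 1.32% of the 13785 genes at such a mean. The coefficient of variation of the 13 members past 1 TPM everywhere ran from 1.79% for CDH4 to 11.8% for DSC2, with a median of 7.25%, and the median over all 13329 genes at that level was 5.96%. Replicate 1 had the highest TPM in 11 of the 13 genes, all but CLDN7 and DSC3, against 58.8% of those 13329 genes. After median-of-ratios scaling, an alternative chosen after the data had been seen, it was highest in 7 of 13, against 38.4% of all.

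The members lie on 21 chromosomes, and 23 of them fall into 9 groups with gaps of at most 1 Mb. CDH1 (chromosome 16, 68737290 to 68835542, plus strand) follows CDH3 on the same strand, and CLDN9 and CLDN6 lie within 5.26 kb on chromosome 16. The genes CLDN1 and CLDN16 on chromosome 3, CLDN8 and CLDN17 on chromosome 21, and CLDN22 and CLDN24 on chromosome 4 were below 1 TPM throughout. CDH2 spans 27932878 to 28177130 on the minus strand of chromosome 18 and CDH13 covers 82626794 to 83800640 on the plus strand of chromosome 16. By the canonical transcripts of GENCODE v44, 11 members have a single exon, all of them claudins, and CLDN4 with 1695 nt is the expressed one among these. The strand setting of the quantification is not given in the sources used here, and 28 members overlap another gene row. Most overlaps of expressed members were with rows near 0. Exceptions were CLDN7, which shares 38 bp with ELP5 (45.8 TPM), and TJP3, which shares 42 bp with APBA3 (10.8 TPM). CLDN20, with a mean of 0.283 TPM, lies over its whole length in TFB1M (8.27 TPM) on the other strand. CLDN22, listed at 0, likewise lies within WWC2 (12.9 TPM) on the other strand. Among other low members, CLDN18, with a mean of 0.791 TPM, overlaps LOC105374127 (1.58 TPM) in part. CDH12 overlaps SNORA105A (12.5 TPM) and CDH23 overlaps VSIR (8.36 TPM), and these partners are also on the other strand. Whether reads of such partners entered a member's value was not tested.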

How the data were processed

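PolyA RNA was sequenced in 3 libraries of 1 condition, so no groups were compared. Per the paper and the labels, paired-end reads of 150 bp were cleaned by the authors using FastQC 0.11.8 and Trim Galore 0.6.2 and mapped to GRCh38 with STAR 2.6.1a. StringTie is also named in the submitters' processing notes, and its version, annotation and strand setting are not given in the sources used here. One table per library was deposited. Coverage, as deposited, gives the average number of reads over a gene, unscaled for library size, and the deposited FPKM and TPM values are scaled for length and library size. The tables hold no counts, so no counting error could be given, and the SD over 3 libraries stands for precision.

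Rows were joined by identifier, name, strand and coordinates, which kept 43389 and left out 2 to 4 per table. TPM was used as deposited. Protein-coding genes were taken from RefSeq (GRCh38.p14), transcripts from GENCODE v44 and promoter windows from RefSeq. Every member row overlapped its GENCODE gene on the same strand. All 48 partner genes were found, PALS1 under an older symbol. Named were all 58 members and the 4 highest and 4 lowest partners of each of 4 groups. A few further genes that the lists or the gene names take in are not reported here. The members, lists and pairs were chosen with earlier results of these data known. Pairs were compared by an exact sign-flip permutation test. The range count was checked on simulated libraries. Alternatives were other pseudocounts and TPM limits, FPKM or coverage, 2 other scalings, shares by coverage and leaving out each replicate. Python 3.11.15, numpy 2.4.6, pandas 2.3.3 and matplotlib 3.10.9 were used.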

Additional observations from a re-analysis of the deposited data

How the results depend on the processing

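The numbers of expressed genes depended on the TPM limit. With a minimum of 0.1 TPM, 23 members, 8 claudins and 9 cadherins passed in all 3 libraries, against 13, 4 and 4 at 1 TPM. The share of all genes at 0.1 TPM was not counted, so this rise cannot be set against that of other genes. With a minimum of 10 TPM, 7 members, 2 cadherins, 1 desmosomal cadherin and 23 partners passed, against 13, 4, 3 and 36. The share of protein-coding rows was 40.4% at 10 TPM and 59.5% at 1 TPM. Scaling without mitochondrially encoded genes, which held 19.9% to 20.2% of TPM, raised the median level of the 13 expressed members from 11.7 to 14.6 TPM and all 13 means by over 1 SD, since it raises every other gene by nearly the same factor. With it, and also without replicate 2, CDH1 passed the limit too, and 14 members did. The 5 log2 ratios of pairs kept their direction by FPKM, by coverage, with a pseudocount of 0.1 and without each replicate in turn, but not their size. With a pseudocount of 0.1, CLDN1 to CLDN2 went from -0.61 to -2.62, and by coverage TJP1 to OCLN went from 4.11 to 6.20, CLDN4 to CLDN3 from 5.66 to 7.57 and CDH2 to CDH1 from 3.80 to 2.61. No paired analysis was possible because the labels give 1 condition, so that replicate numbers pair no samples between groups. The unknown depth limits every gene near or at 0.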

Other observations

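Relatives of the members that the gene names leave out were read from lists chosen after the members' values had been seen. Of 25 other genes of the cadherin superfamily, 9 had at least 1 TPM in all 3 libraries and 6 had at least 10 TPM. The shares of all protein-coding rows were 59.5% and 40.4%. CLSTN1 (calsyntenin 1), which is known from vesicle transport in neurons, had 96.0 TPM on average, with 102, 95.1 and 91.4 TPM in replicates 1, 2 and 3. The planar polarity cadherins CELSR2, CELSR3 and CELSR1 had means of 21.5, 15.6 and 15.1 TPM, and FAT1, a giant cadherin, had 15.5 TPM. DCHS2, PCDH10, PCDH17, PCDH18, PCDH19, PCDH20 and FAT3 were listed at 0 in all 3 libraries.

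Of 8 genes related to the claudins, 7 had at least 1 TPM in all 3 libraries, against 59.5% of protein-coding rows. EMP3, PMP22 and EMP2, small membrane proteins with the fold of claudins, had 273, 152 and 105 TPM on average, each above CLDN4. Of 13 gap junction genes, whose products form channels between cells, 4 passed 1 TPM in all 3 libraries, against the same 59.5%. The highest of these, GJB5, had 14.0, 14.8 and 16.4 TPM in replicates 1, 2 and 3. GJB1, the main connexin of hepatocytes, and GJA1, the most widespread connexin, were listed at 0 in all 3 libraries, as were GJB2, GJB6, GJA5 and GJC3.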
